A study of Mus musculus with 26 samples.

Results

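Carboxylesterases are serine hydrolases of the endoplasmic reticulum that split ester and amide bonds in drugs, pesticides and lipids. The 10 carboxylesterase genes described here are Ces1b, Ces1c, Ces1d, Ces1e, Ces1f, Ces1g, Ces2a, Ces2c, Ces3a and Ces3b. They were found in a deposited table of 47643 mouse genes as the entries whose Ensembl identifier, without its version, belongs to these symbols, and each symbol gave 1 gene. Their levels were read in all 26 RNA sequencing libraries of the series, and each treated or mutant group was set against its own control.

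The series profiled liver messenger RNA in 5 models that change bile acid load, drug sensing, growth or diet. In the first, C57BL/6J wild type mice of 8 weeks, fed freely, received corn oil (2 libraries) or TCPOBOP (2 libraries), an agonist of the mouse nuclear receptor CAR. The titles place the TCPOBOP livers at 36 h and another label at 6 h after injection. In the second, C57BL/6J mice of 12 weeks, fed freely, were wild type (3 libraries) or Fxr-/- Shp-/- (3 libraries), which lack FXR, the nuclear receptor for bile acids (Nr1h4), and its target SHP (Nr0b2). In the third, C3H/HeN mice of 8 to 10 weeks, fed freely and with no genotype label, were sampled as 0 h sham (3 libraries) or 48 h after partial hepatectomy (3 libraries). The fourth used isolated hepatocytes rather than whole liver, from C57BL/6J wild type mice of 16 weeks after a 10 h fast, on chow (2 libraries) or a 60% high fat diet (2 libraries). In the fifth, C57BL/6J mice of 10 to 12 weeks that carried floxed Fxr and Shp alleles (fl/fl) in both diet groups were fasted for 8 to 10 h on chow (3 libraries) or a cholic acid diet (3 libraries). No Cre transgene is named for these floxed mice. The labels number the libraries and do not say whether they came from separate mice, so p-values measure the spread between these libraries.

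Liver carries more carboxylesterase than most organs. Its enzymes activate prodrugs and clear ester drugs, and several also hydrolyse stored triacylglycerol, so that the family sits between drug and lipid metabolism. CAR, the related receptor PXR and the oxidative stress factor Nrf2 are known regulators of family members in mouse liver.

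The 10 genes lie in a pair of clusters on mouse chromosome 8 (GRCm38, GENCODE M21), and all are annotated as protein coding. The Ces1 genes run on the minus strand. Ces1b (ENSMUSG00000078964, chr8:93056728-93080017) is little studied. Ces1c (ENSMUSG00000057400, chr8:93099015-93131283) encodes the esterase secreted into mouse plasma. Ces1d (ENSMUSG00000056973, chr8:93166068-93197838) encodes triacylglycerol hydrolase, which mobilises stored fat for lipoprotein assembly. Ces1e (ENSMUSG00000061959, chr8:93201218-93229619) encodes egasyn, which holds beta-glucuronidase in the endoplasmic reticulum. Ces1f (ENSMUSG00000031725, chr8:93256236-93279747) encodes a further triacylglycerol hydrolase. Ces1g (ENSMUSG00000057074, chr8:93302369-93337308) encodes a lipid hydrolase whose loss raises liver fat in mice. A gap of 11396694 bp separates Ces1g from the plus-strand cluster. Ces2a (ENSMUSG00000055730, chr8:104734003-104741634) and Ces2c (ENSMUSG00000061825, chr8:104847068-104854483) encode enzymes of the class that takes esters with a bulky alcohol group. Ces3a (ENSMUSG00000069922, chr8:105048601-105058413) and Ces3b (ENSMUSG00000062181, chr8:105083753-105093929) are a close pair of liver esterase genes.

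The encoded proteins have 554 to 571 residues. Coding stretches of 33 bases around the codon of the catalytic serine are shown because this is the site every member shares, with that codon in capitals (5′ to 3′, read from GENCODE M21 coding sequences, for 3 pairs of members):
Ces1d: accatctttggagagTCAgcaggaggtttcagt
Ces1f: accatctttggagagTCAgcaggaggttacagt
Ces2a: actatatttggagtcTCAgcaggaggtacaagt
Ces2c: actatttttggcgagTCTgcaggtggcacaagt
Ces3a: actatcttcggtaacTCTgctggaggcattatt
Ces3b: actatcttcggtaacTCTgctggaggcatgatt
The serine codon was TCA in 7 members and TCT in 3. Over the 45 pairs of members these stretches differed at 1 to 13 of 33 bases, with 1 difference between Ces1d and Ces1f and 1 between Ces3a and Ces3b.

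The last 24 coding bases before the stop codon are shown because they hold the known retrieval signal of the endoplasmic reticulum in some members and not in others. The final 12 bases, in capitals, encode the last residues, where 6 members (Ces1d, Ces1e, Ces1f, Ces1g, Ces2a and Ces2c) carry that signal and 4 (Ces1b, Ces1c, Ces3a and Ces3b) do not carry that form:
Ces1c: cctactgaacacACAGAACACAAA
Ces1g: tcccatagggaaCATGTTGAACTG
Ces2a: tctcaggacaagCATGCAGAGCTG
Ces3b: agcaggaaagttCCAGAGGAGCTC

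Close relatives in this family can exchange reads. Coding sequences were 95.3% identical between Ces3a and Ces3b, 88.9% between Ces1b and Ces1c, 82.4% between Ces2a and Ces2c and 81.6% between Ces1d and Ces1g. Of all 50-base words in the transcript of Ces2c, 42.2% also occurred in transcripts of other genes, mostly the pseudogene Ces2d-ps. The share was 30.9% for Ces3a, 26.1% for Ces3b, 22.2% for Ces2a, 16.98% for Ces1c and 11.6% for Ces1b. Ces1d, Ces1e, Ces1f and Ces1g shared 1.28% to 3.21%, so their counts depend least on how reads with several matches were handled. Ces3a overlaps the predicted gene Gm45724 on the other strand, and Ces1d overlaps Gm45909 on the same strand.

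Promoters in RefSeq (GRCm38.p6) were found for 7 of the 10 members, and those of Ces2a and Ces3b are printed because these genes gave the largest rise and the largest fall among the members. Each is the 250 bases before the annotated start, 5′ to 3′ on the plus strand, with motif matches in capitals (chr8:104733753-104734002 for Ces2a and chr8:105083505-105083754 for Ces3b):
Ces2a: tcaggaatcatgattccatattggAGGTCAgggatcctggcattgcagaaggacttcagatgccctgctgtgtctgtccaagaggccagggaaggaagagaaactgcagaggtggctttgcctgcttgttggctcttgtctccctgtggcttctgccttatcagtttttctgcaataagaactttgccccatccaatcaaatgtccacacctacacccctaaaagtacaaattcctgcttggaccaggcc
Ces3b: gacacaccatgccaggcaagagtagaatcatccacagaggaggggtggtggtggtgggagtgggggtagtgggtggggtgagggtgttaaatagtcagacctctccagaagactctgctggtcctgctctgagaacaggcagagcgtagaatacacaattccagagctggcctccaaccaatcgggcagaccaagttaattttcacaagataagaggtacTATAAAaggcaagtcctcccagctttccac
Searched on both strands were AGGTCA (the hexamer bound by many nuclear receptors), AGTTCA (a variant bound by CAR and PXR), TGACNNNGC (the core of antioxidant response elements) and TATAAA (the TATA box core). AGGTCA began 226 bases before the start of Ces2a, and TATAAA 30 bases before that of Ces3b. Over 32851 RefSeq promoters of the same length, 14.02% held AGGTCA, 11.8% AGTTCA, 10.2% TGACNNNGC and 12.4% TATAAA.

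The libraries held 13949059 to 70367874 reads assigned to genes. The library labelled corn oil 1 held 3672 CPM (counts scaled to a common library size, with TMM over all libraries) of the CAR target Cyp2b10, against 10.0 in corn oil 2 and 3420 and 2976 in the TCPOBOP libraries, and so went against its label. In the knockout check, Nr0b2 had 280, 446 and 226 reads in wild type and 13, 25 and 39 in Fxr-/- Shp-/- livers, while Nr1h4 had 2846, 2546 and 1941 against 1421, 1198 and 1356. Which exons of Nr1h4 were removed is not given in the sources used here, so whether its remaining reads lie outside the deleted part was not tested. Reads without a unique position made up 43.2% to 44.1% of all counted lines in wild type and 25.5% to 26.9% in the knockout, and 23.8% to 25.1% in floxed chow against 16.6% to 17.6% with cholic acid. In hepatocytes they were 23.8% to 24.6% on chow and 19.01% to 19.31% on high fat diet. Their part in the results for members with shared words was not tested. Scaling by library size alone shifted the median log2 fold change of all genes to 0.19 in the knockout, 0.20 after hepatectomy, 0.14 with high fat diet, 0.19 with cholic acid and -0.11 with TCPOBOP. Under it, genes called higher and lower numbered 4125 and 1277 in the knockout (2823 and 2618 with TMM), 3730 and 1053 after hepatectomy (2256 and 1969), 2502 and 872 with high fat diet (1789 and 1544) and 556 and 243 with cholic acid (285 and 315).

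**Figure D1:**
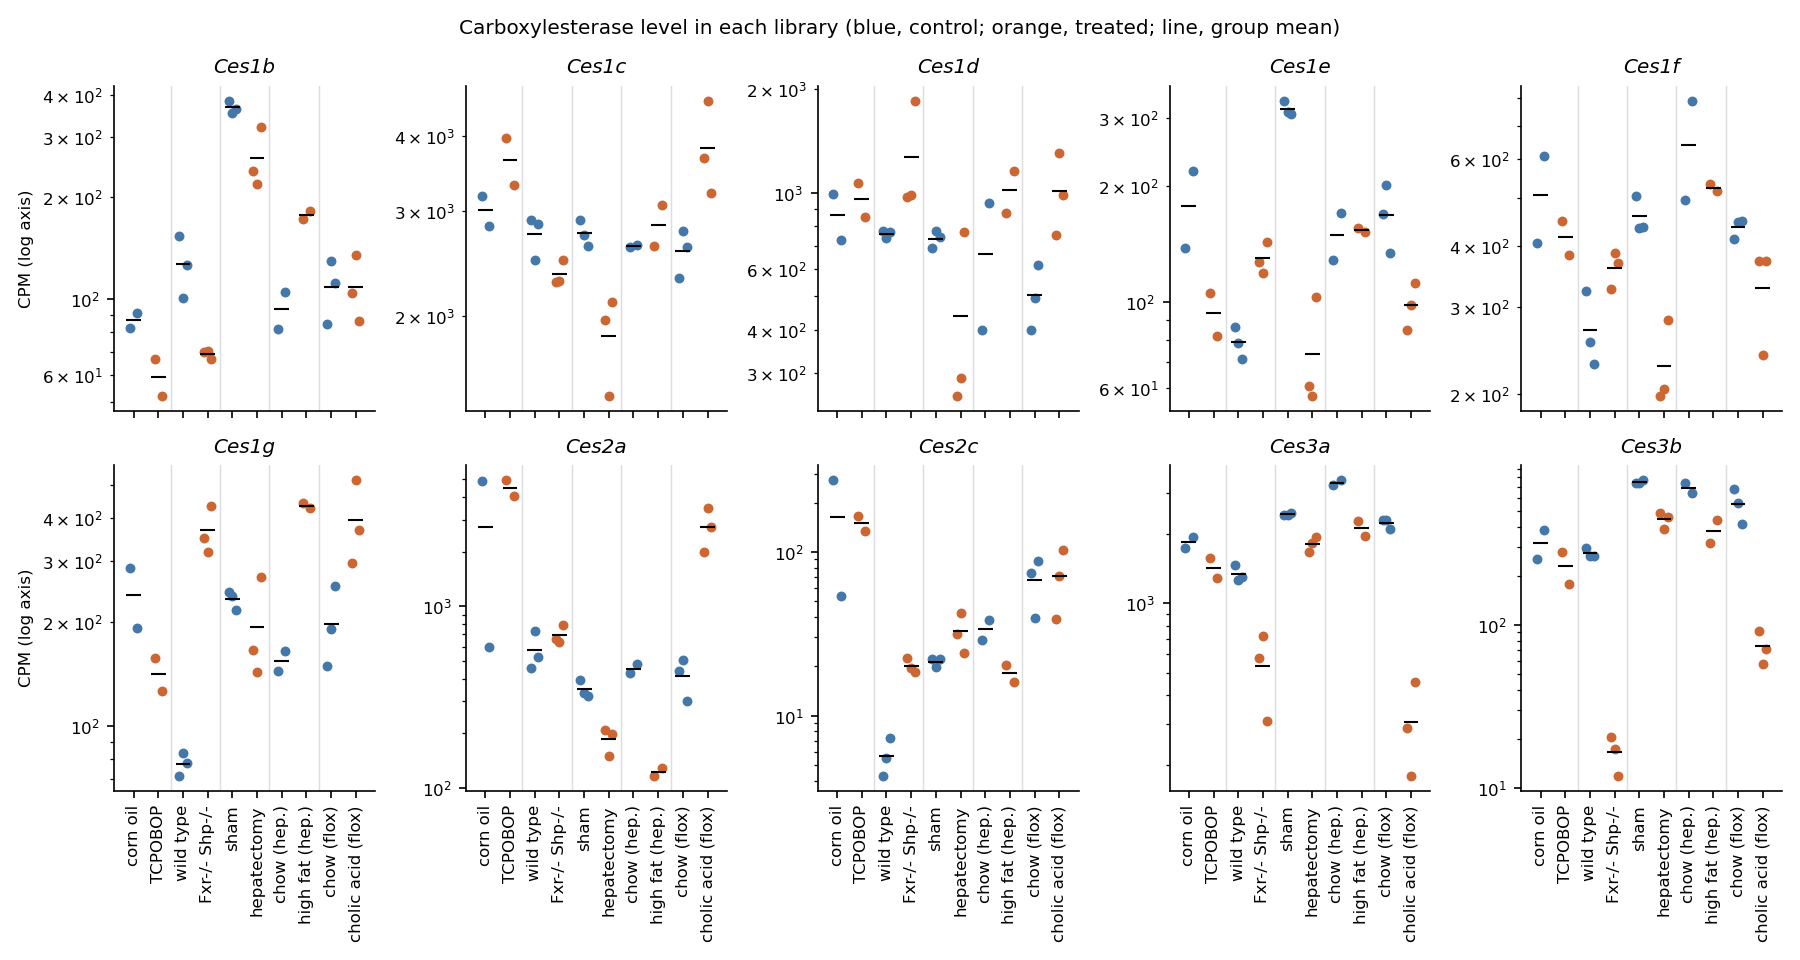
Level of each of the 10 genes in the 26 libraries, as CPM on a log axis, with control libraries in blue, treated or mutant libraries in orange and group means as lines (hep., hepatocytes; flox, floxed mice). Ces3b fell from 263 to 297 CPM in wild type to 11.9 to 20.7 CPM in the knockout, and 1 corn oil library lies among the TCPOBOP libraries for Ces2a.

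Per kb of exon, Ces1c had the highest mean level in 8 of 10 groups. It ranked second in TCPOBOP, behind Ces2a, and in chow hepatocytes, behind Ces3a. In the corn oil, hepatectomy and cholic acid groups its libraries overlapped those of the member ranked next. In wild type liver the order of mean level was Ces1c at 1181 CPM per kb, Ces3a at 511, Ces1d at 321, Ces2a at 242, Ces3b at 107, Ces1f at 82.0, Ces1b at 64.5, Ces1e at 36.0, Ces1g at 32.6 and Ces2c at 2.47. Neighbours in this order overlapped over the libraries only for Ces1f with Ces1b and for Ces1e with Ces1g, which is 2 of 9 neighbour pairs. Over the groups, overlapping pairs ran from 1 of 9 in high fat hepatocytes to 7 of 9 in corn oil. Among the 10 groups Ces1d held places 2 to 4, whereas Ces2a ranged from 1 to 9 and Ces3b from 3 to 10.

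Summed over the 10 genes, carboxylesterase reads were 6250 ± 263 CPM (SD, n = 3) in wild type and 5815 ± 581 CPM (SD, n = 3) in the knockout. Sham livers held 8404 ± 176 CPM and hepatectomised livers 5509 ± 873 CPM (SD, n = 3 each), and every hepatectomised library lay below every sham library. In the TCPOBOP experiment the sum was 12220 and 7632 CPM with corn oil and 12767 and 10443 CPM with TCPOBOP, so those groups overlapped. The sum was 8823 ± 743 CPM in chow hepatocytes and 7779 ± 377 CPM with high fat diet (SD, n = 2 each). Floxed mice held 7246 ± 345 CPM on chow and 8958 ± 1521 CPM on cholic acid (SD, n = 3 each). Within the sum, cholic acid livers gave 30.2% ± 3.75 to Ces2a and 3.59% ± 1.83 to Ces3a, against 5.70% ± 1.28 and 30.8% ± 1.62 on chow (SD, n = 3 each). The summed level of the cholic acid libraries (7709 to 10652 CPM) lay above that of the chow libraries (7017 to 7643 CPM).

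**Figure D2:**
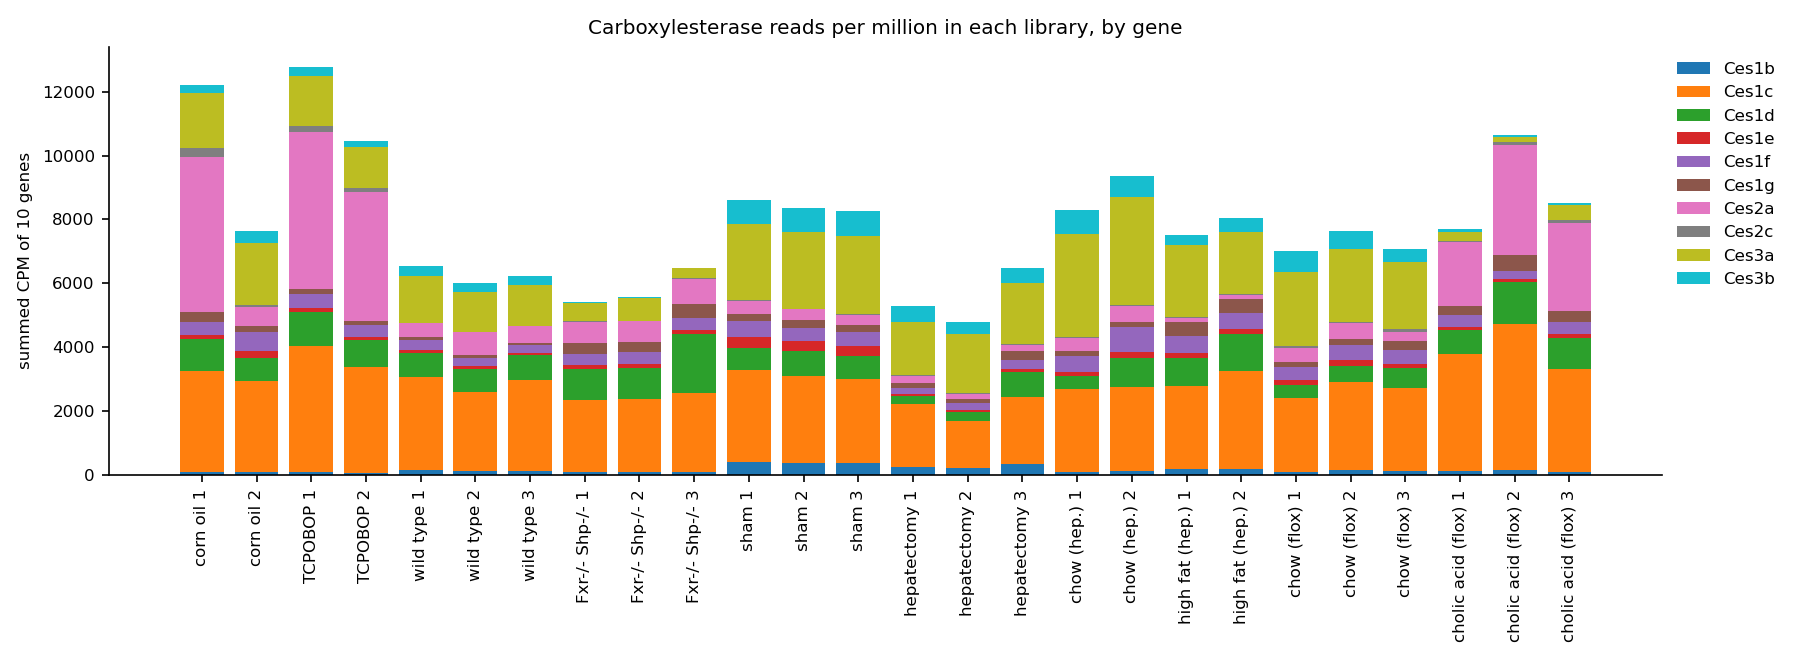
Summed CPM of the 10 genes in each library, stacked by gene. Ces2a takes a mean of 5.70% of the sum on chow and 30.2% with cholic acid in floxed mice, and Ces3a 30.8% and 3.59%.

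Loss of FXR and SHP moved the family in both directions, with the Ces3 genes and Ces1b down and Ces1e, Ces1g and Ces2c up. Ces1d and Ces1f were also higher, but their calls depended on single libraries. By edgeR's quasi-likelihood test at a Benjamini-Hochberg adjusted p under 0.05, which is the rule for every call below, 5 of the 10 members were higher and 3 were lower. Of 13473 genes tested, 21% were called higher and 19.4% lower, so that a high share of calls was general in this comparison. All 10 members passed the filter on low counts in every comparison. The median log2 fold change was 0.37 for the 10 members and -0.01 for all genes. In bulk samples such as these, fewer cells of a type and less RNA per cell cannot be told apart.

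Ces3b gave the largest change. Its level was 297, 263 and 265 CPM in the wild type libraries and 20.7, 17.3 and 11.9 CPM in the knockout libraries. Every knockout library lay far below every wild type library. The fall was 16.3-fold, a log2 fold change of -4.03 ± 0.19 (SE, adjusted p = 2.35e-06 by edgeR). Its near copy Ces3a had 1463, 1265 and 1299 CPM in wild type and 579.6, 722 and 309 CPM in the knockout. Its groups did not overlap either, and knockout 3 was the lowest library. Ces3a fell by 1.30 ± 0.26 on the log2 scale (SE, adjusted p = 0.00482 by edgeR).

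Ces1g, the lipid hydrolase gene, had 71.7, 83.7 and 78.0 CPM in wild type and 351, 319.5 and 434 CPM in the knockout. All knockout libraries lay above all wild type libraries, and the rise was 4.80-fold, a log2 fold change of 2.26 ± 0.13 (SE, adjusted p = 7.72e-06 by edgeR). Ces2c was the rarest member in wild type, at 4.28, 5.48 and 7.29 CPM, and reached 22.4, 19.6 and 18.4 CPM in the knockout. The groups were clearly apart, with a log2 fold change of 1.85 ± 0.18 (SE, adjusted p = 0.000119 by edgeR). Ces2c is also the member with most words shared with other genes.

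Ces1e, the egasyn gene, had 86.5, 78.5 and 71.4 CPM in wild type and 127, 119 and 144 CPM in the knockout. It rose by 0.74 ± 0.11 on the log2 scale (SE, adjusted p = 0.00101 by edgeR), with no overlap. Ces1d had 773, 738 and 769 CPM in wild type and 971, 984 and 1851 CPM in the knockout, where knockout 3 stood well above the other libraries. Its log2 fold change was 0.76 ± 0.23 (SE, adjusted p = 0.0300 by edgeR), fell to 0.39 without knockout 3, where it was still called, and was not called when any 1 of the 3 wild type libraries was left out. Ces1f went from 323, 255 and 230 CPM to 327, 386 and 369 CPM, which is close to overlap. It had a log2 fold change of 0.44 ± 0.14 (SE, adjusted p = 0.0331 by edgeR), not called without wild type 2, wild type 3 or knockout 2. In 1 fit of all 26 libraries neither Ces1d nor Ces1f was called (adjusted p = 0.118 and 0.109 by edgeR). Ces1b, at 153, 101 and 126 CPM in wild type, was lower in the knockout at 70.1, 70.5 and 66.9 CPM. The groups did not overlap, and Ces1b fell by 0.85 ± 0.14 on the log2 scale (SE, adjusted p = 0.00166 by edgeR). Ces1c, the plasma esterase gene, had 2481 to 2894 CPM in wild type and 2276 to 2485 CPM in the knockout. Ces1c (-0.20 ± 0.11, SE, adjusted p = 0.179) and Ces2a (0.30 ± 0.18, SE, adjusted p = 0.209) were not called by edgeR. Without wild type 2 Ces2a was called higher, at 0.53.

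Of 10 further family genes, 3 were tested, and Ces2e (0.90 ± 0.20, adjusted p = 0.00710) and Ces2g (1.57 ± 0.12, adjusted p = 2.93e-05) rose, while Ces4a fell (-2.07 ± 0.52). Of 37 other ester and lipid hydrolases tested, 12 rose and 7 fell. Over all genes tested in the knockout, 21% were called higher and 19.4% lower, and every list count here stands beside those shares. Abhd2, a monoacylglycerol hydrolase gene, rose by 2.28 ± 0.15 on the log2 scale, and Acot3, an acyl-CoA thioesterase gene, by 2.24 ± 0.28. Aadac, arylacetamide deacetylase, fell by 0.85 ± 0.09, and Ephx2, soluble epoxide hydrolase, by 1.03 ± 0.15 on that scale. Of 12 targets of CAR, PXR and Nrf2, 10 rose and 0 fell, led by the transferase gene Gsta1 (6.74 ± 0.30) and the efflux pump gene Abcc4 (4.79 ± 0.34). Among 16 regulators of carboxylesterase genes, 1 rose, Nfe2l2, which encodes Nrf2 (0.65 ± 0.08), and 6 fell, among them Klf15 (-1.87 ± 0.24) and the deleted Nr0b2. These 16 include both genes that the model lacks, Nr1h4 and Nr0b2, whose lower reads reflect the genotype. Errors in this paragraph are SE of log2 fold changes, and all calls are edgeR's.

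Some markers of other liver cells also differed in the knockout, where 21% of all genes were called higher and 19.4% lower. Of 5 bile duct markers, 4 were higher, with a summed level of 54.4 to 128 CPM against 26.5 to 36.2 CPM in wild type. Of 5 stellate cell markers, 3 were higher (113 to 137 CPM against 49.8 to 81.6), and 4 of 7 hepatocyte markers were lower (66548 to 88425 CPM against 95851 to 121297). Endothelial markers were higher in 2 of 5 cases (107 to 155 CPM against 58.6 to 110), and of 6 macrophage markers 2 were higher and 1 lower (162 to 334 CPM against 111 to 259). Their part in the carboxylesterase values was not tested.

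**Figure D3:**
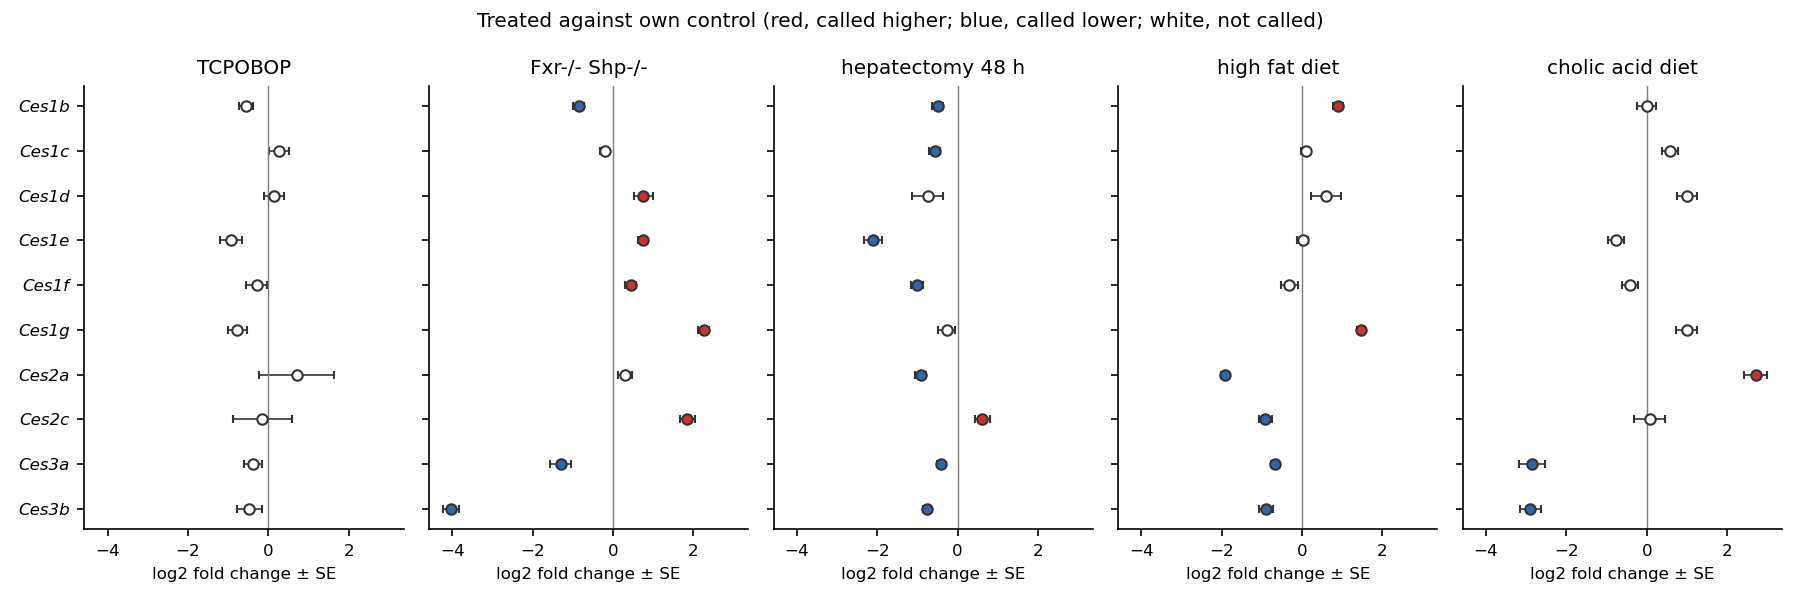
Log2 fold change with its SE (bars) of each gene in each comparison, where red points were called higher, blue points lower and white points not called by edgeR at an adjusted p under 0.05. Ces3a and Ces3b were called lower in 4 of the 5 comparisons, and TCPOBOP gave no call.

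Cholic acid feeding raised Ces2a and lowered both Ces3 genes. These were the only members called, 1 higher and 2 lower, where 2.27% of 12577 genes tested were called higher and 2.5% lower. The median log2 fold change was 0.04 for the members and 0.01 for all genes. Floxed chow 3 stood apart: chi-square per degree of freedom over genes was 116 and 114 against the other chow libraries and 18.6 between those. Without it 719 genes were called higher and 626 lower, against 285 and 315 with it. Leaving out any other library lowered both counts, to 112 and 186 without chow 1, 63 and 131 without chow 2, 135 and 136 without cholic acid 1, 79 and 110 without cholic acid 2 and 87 and 109 without cholic acid 3.

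Ces2a had 439.9, 504 and 299.8 CPM on chow and 1995, 3460 and 2747 CPM with cholic acid. Every cholic acid library was well above every chow library, and the rise was 6.59-fold, a log2 fold change of 2.72 ± 0.29 (SE, adjusted p = 0.00316 by edgeR). Ces3a went the other way, from 2292, 2298 and 2100 CPM to 289, 179 and 454 CPM. Its fall was 7.25-fold, a log2 fold change of -2.86 ± 0.33 (SE, adjusted p = 0.00489 by edgeR), with no overlap. Ces3b had 680, 559 and 417 CPM on chow and 92.3, 58.1 and 71.2 CPM with cholic acid. It fell 7.47-fold, a log2 fold change of -2.90 ± 0.26 (SE, adjusted p = 0.00204 by edgeR), and its groups too were apart. All 3 calls held without any 1 library and in each of the 7 other settings tried.

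Among the Ces1 genes, Ces1g was at 149, 191 and 254 CPM on chow and 296, 515 and 369 CPM with cholic acid. The groups did not overlap, but the log2 fold change of 0.99 ± 0.27 (SE, adjusted p = 0.0746) was not called by edgeR. Ces1d was at 401, 493 and 619 CPM against 756, 1307 and 983 CPM (1.01 ± 0.25, SE, adjusted p = 0.0618 by edgeR), again without overlap. Ces1e was at 169, 201 and 134 CPM against 84.7, 98.6 and 112 CPM, with every cholic acid library lower (-0.77 ± 0.20, SE, adjusted p = 0.0670 by edgeR). Without floxed chow 3, all of Ces1d, Ces1e and Ces1g were called, at 1.18, -0.91 and 1.21. Ces1c (0.58 ± 0.20) and Ces1f (-0.41 ± 0.21) were not called although their libraries did not overlap, and Ces1b (0.00 ± 0.23) and Ces2c (0.08 ± 0.39) had groups that overlapped (SE). In total 4 members had all treated libraries above and 4 had all below the chow libraries. The share of all genes separated in this way was not computed, so nothing about the family is read from these counts.

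Beside the list and marker counts of this paragraph, 2.27% of all genes tested were called higher and 2.5% lower. Of the other family genes, Ces4a fell with cholic acid by 4.48 ± 0.67 on the log2 scale, the only call among 3 tested. Among 38 other hydrolases, 1 rose, the microsomal epoxide hydrolase gene Ephx1 (1.59 ± 0.22), and 6 fell, led by Pon1, the paraoxonase of plasma lipoproteins (-1.53 ± 0.19), and the hepatic lipase gene Lipc (-1.05 ± 0.17). Of the 12 targets of CAR, PXR and Nrf2, 9 rose and 0 fell, with Gstm3 up by 6.22 ± 0.43 and Gsta1 by 5.14 ± 0.47. Of the 16 regulators, Nr0b2 (1.96 ± 0.27) and the PXR gene Nr1i2 (0.68 ± 0.15) rose, and Nr1h4 (-1.01 ± 0.19) and Cebpa (-1.08 ± 0.24) fell. These are edgeR calls with SE of log2 fold changes. Of the hepatocyte markers 2 of 7 were lower, at a summed 98075 to 125088 CPM against 104798 to 121365 CPM on chow, and 1 of 6 macrophage markers (152 to 247 CPM against 65.8 to 155) and 1 of 5 stellate cell markers (62.1 to 110 CPM against 36.6 to 82.5) were higher. Their part in the result was not tested.

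The knockout and cholic acid effects, which use separate controls, were compared in 1 fit of both experiments. This sets freely fed mice without floxed alleles against fasted floxed mice. Feeding, floxed alleles and age cannot be told apart here from the effects compared. The knockout effect was higher for 5 members and lower for 3, where 7.18% of 13935 genes were called higher and 6.74% lower. These 1000 and 939 genes became 728 and 597 without wild type 2 and 733 and 610 without knockout 2. Ces2a differed most firmly: its knockout effect minus its cholic acid effect was -2.41 ± 0.35 (SE of log2, adjusted p = 0.000936 by edgeR). Ces1e was 1.52 ± 0.23 higher in its knockout effect (SE of log2, adjusted p = 0.00115 by edgeR), with 0.74 in the knockout and -0.77 with cholic acid. The calls for Ces1e and Ces2a held when any 1 of the 12 libraries was left out.

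The other differences depended more on single libraries. Ces1g differed by 1.28 ± 0.32 (SE, adjusted p = 0.0185 by edgeR) and was not called without wild type 1, and it ranged from 1.05 to 1.52 over the libraries left out. Ces2c (1.77 ± 0.48), Ces1f (0.86 ± 0.25) and Ces3a (1.57 ± 0.45) were called higher, and Ces1c (-0.77 ± 0.22) and Ces3b (-1.12 ± 0.32) lower (SE of log2). Leaving out 1 library ended the call of Ces2c in 5 of 12 cases, of Ces1f in 7, of Ces1c in 8, of Ces3b in 8 and of Ces3a in 9, and wild type 2 and knockout 2 ended all 5 of these calls. Scaling by library size alone ended those of Ces1f and Ces3b (adjusted p = 0.0568 and 0.0664 by edgeR), and the replicate block those of Ces1c and Ces1f (0.0527 and 0.0697). Ces1b (-0.84 ± 0.29, adjusted p = 0.0694) and Ces1d (-0.25 ± 0.37, adjusted p = 0.713) were not called by edgeR. Ces3a and Ces3b thus fell in both experiments, with the larger fall in Ces3b in the knockout and values of similar size with cholic acid. Among the lists, 1 of 3 other family genes, Ces2e, was higher in its knockout effect (1.73 ± 0.43), and among 38 hydrolases 6 were higher, led by Abhd2 (2.40 ± 0.36) and Pon1 (2.06 ± 0.22), and 1 was lower, Ephx1 (-1.14 ± 0.26). Of the regulators 0 of 16 were higher and 4 lower, Nr0b2 (-5.98 ± 0.52), Klf15 (-1.47 ± 0.32), Nr1i2 (-1.01 ± 0.22) and Hnf4a (-0.98 ± 0.24). Nr0b2 is deleted in the knockout, so its call partly reflects the genotype. Over all genes tested, 7.18% were called higher and 6.74% lower. Of the 12 targets 1 was higher, Abcc4 (2.91 ± 0.52), and 5 lower, Gstm3 (-2.04 ± 0.49), Gstm1 (-2.02 ± 0.28), Nqo1 (-1.79 ± 0.31), Gclc (-1.67 ± 0.36) and Cyp3a11 (-1.01 ± 0.31).

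**Figure D4:**
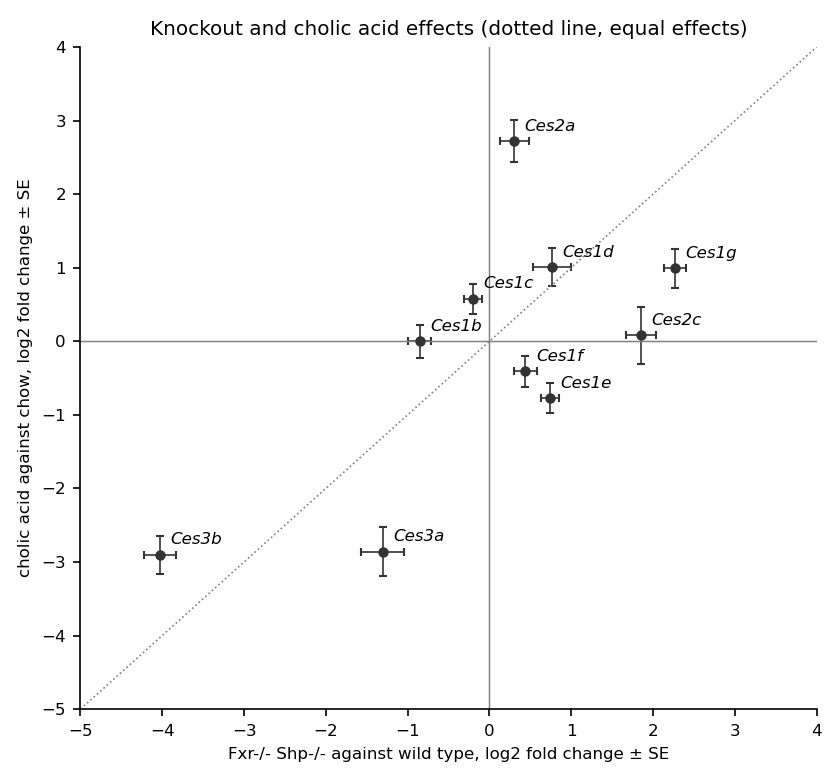
Log2 fold change of each gene in the knockout (horizontal) against that with cholic acid (vertical), with SE bars and a dotted line of equal effects. Ces2a lies far above the line at 0.30 and 2.72, and Ces3b below 0 on both axes at -4.03 and -2.90.

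In hepatocytes from mice on high fat diet, Ces2a fell most and Ces1g rose most. Called higher were 2 members and lower 4, beside 12.9% and 11.1% of 13892 genes tested. These shares are 1789 and 1544 genes, and they fell to 619 and 522 without high fat 1 and to 945 and 848 without high fat 2. The member median was -0.15 and that of all genes 0.01 (log2). Ces2a had 430.3 and 479 CPM on chow and 117 and 129 CPM on high fat diet, a 3.76-fold fall with both high fat libraries far below (log2 fold change -1.91 ± 0.10, SE, adjusted p = 0.000840 by edgeR). Ces1g had 144 and 165 CPM on chow and 441 and 428 CPM on high fat diet. It rose by 1.46 ± 0.10 on the log2 scale (SE, adjusted p = 0.00138 by edgeR), with groups that did not overlap.

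Ces1b, which was lower in the knockout, was higher on high fat diet, at 172 and 182 CPM against 81.8 and 105 CPM (0.90 ± 0.13, SE of log2, adjusted p = 0.00991 by edgeR). Ces2c and both Ces3 genes were lower. Ces2c was at 28.9 and 38.2 CPM on chow and 20.2 and 16.1 CPM on high fat diet (-0.91 ± 0.17, SE, adjusted p = 0.0179 by edgeR). Ces3a was at 3236 and 3401 CPM on chow and 2262 and 1960 CPM on high fat diet (-0.68 ± 0.11, SE, adjusted p = 0.0115 by edgeR). Ces3b was at 743 and 639 CPM on chow and 317 and 439 CPM on high fat diet (-0.90 ± 0.18, SE, adjusted p = 0.0204 by edgeR). Each of these 4 genes had groups that did not overlap. The share of all genes separated like this was not computed, so nothing is read from that count. With 1 library left out, log2 fold changes ran from 0.73 to 1.08 for Ces1b and from -1.10 to -0.71 for Ces2c. They ran from -0.78 to -0.59 for Ces3a and from -1.16 to -0.68 for Ces3b. In 1 fit of all 26 libraries the calls of Ces2c (adjusted p = 0.282 by edgeR) and Ces3a (adjusted p = 0.193 by edgeR) were lost. Ces1c (0.09 ± 0.11), Ces1d (0.59 ± 0.38), Ces1e (0.02 ± 0.13) and Ces1f (-0.32 ± 0.21) were not called (SE of log2). For Ces1d the chow libraries themselves were apart, at 400 and 932 CPM. It was called higher without chow 2, at 1.31, and Ces1f was called lower without chow 1, at -0.61.

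Beside the list counts of this paragraph, 12.9% of all genes tested were called higher and 11.1% lower. Of 7 other family genes tested in hepatocytes, 1 rose, Ces2h (1.69 ± 0.39), and 1 fell, Ces4a (-3.35 ± 0.22). Ces2h was near the floor, with at most 32 reads in any library of the series. Among 37 hydrolases 10 rose, led by the thioesterase gene Acot2 (1.79 ± 0.13) and Naaa (1.62 ± 0.28), and 6 fell, led by the adipose triglyceride lipase gene Pnpla2 (-0.70 ± 0.11) and Pnpla7 (-0.51 ± 0.13). Of the 12 targets 2 rose, Gsta1 (3.45 ± 0.45) and the quinone reductase gene Nqo1 (1.34 ± 0.14), and 4 fell, Cyp3a11 (-4.60 ± 0.16), Cyp2b10 (-3.11 ± 0.41), Cyp2c55 (-2.06 ± 0.24) and Gstm3 (-0.83 ± 0.13). Of 16 regulators 2 rose, among them Onecut1 (1.69 ± 0.38), and 2 fell, Ahr (-1.09 ± 0.28) and Hnf4a (-0.68 ± 0.14). All are edgeR calls with SE of log2 fold changes.

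The hepatocyte preparations differed in markers of other cells, where 12.9% of all genes were called higher and 11.1% lower. On high fat diet 5 of 5 endothelial markers were higher (94.7 to 97.8 CPM summed against 37.9 to 39.8), as were 4 of 6 macrophage markers (48.0 to 52.8 CPM against 28.5 to 28.6), 4 of 5 stellate cell markers (21.7 to 23.2 CPM against 4.34 to 8.25) and the 1 leukocyte marker tested. Krt19, Epcam, Cd79a and Nkg7 were at 0 in both chow libraries. Hepatocyte markers were lower in 4 of 7 cases, at 102070 to 103822 CPM against 104962 to 108537 CPM. Their part in the high fat values was not tested.

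Against the high fat effect, the knockout effect was higher for 4 members and lower for 2, where 7.98% of 14280 genes were called higher and 8.11% lower. These 1139 and 1158 genes became 725 and 715 without chow 1, 741 and 687 without chow 2, 717 and 873 without high fat 1 and 607 and 662 without high fat 2. This sets whole liver of freely fed mice against hepatocytes of fasted mice, and tissue, age and diet cannot be told apart here. Ces2c (2.77 ± 0.28, SE, adjusted p = 0.000113), Ces2a (2.22 ± 0.25, SE, adjusted p = 0.000230), Ces1g (0.81 ± 0.18, SE, adjusted p = 0.0125) and Ces1e (0.73 ± 0.18, SE, adjusted p = 0.0216) were higher by edgeR. Ces3b (-3.12 ± 0.30, SE, adjusted p = 8.45e-05) and Ces1b (-1.74 ± 0.23, SE, adjusted p = 0.000574) were lower by edgeR. The calls of Ces1e and Ces1g were lost without chow 2, high fat 1 or high fat 2, and in 1 fit of all 26 libraries (adjusted p = 0.216 and 0.222 by edgeR). Ces1c (-0.28 ± 0.17), Ces1d (0.18 ± 0.48), Ces1f (0.76 ± 0.27) and Ces3a (-0.61 ± 0.38) were not called (SE of log2). Both Ces2 genes therefore took opposite sides of 0 in these experiments, although the rise of Ces2a in the knockout was not itself called. Of the lists, 1 of 4 other family genes was higher, Ces2g (1.14 ± 0.19), and 4 of 37 hydrolases were higher (Lpl at 2.38 ± 0.23, Abhd2 at 1.42 ± 0.21, Pon1 at 0.67 ± 0.18 and Bche at 0.51 ± 0.15), with 3 lower (Ephx2 at -0.72 ± 0.21, Aadac at -0.69 ± 0.13 and Acot13 at -0.66 ± 0.16). Of 16 regulators 1 was higher, Ahr (1.20 ± 0.30), and 4 lower, Nr0b2 (-3.57 ± 0.54), Klf15 (-1.73 ± 0.34), Nr1i3 (-1.28 ± 0.28) and Nr1h4 (-1.26 ± 0.18). Nr0b2 and Nr1h4 are the genes deleted in the knockout, so their calls reflect the genotype. Of 12 targets 8 were higher, led by Cyp2b10 (5.99 ± 0.58) and Cyp2c55 (5.87 ± 0.50), and 0 lower.

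48 h after partial hepatectomy, most members were lower than in sham livers. Of the 10, 7 were called lower and 1 higher, beside 14.3% and 16.4% of 13753 genes tested. These shares are 1969 and 2256 genes, and they fell to 1111 and 1443 without sham 2 and to 1113 and 1462 without sham 3. The member median log2 fold change was -0.66, against 0.01 for all genes. Ces1e changed most, from 332, 311 and 308 CPM in sham livers to 60.9, 57.1 and 103 CPM after hepatectomy. The groups were far apart, and the fall was 4.29-fold, a log2 fold change of -2.10 ± 0.22 (SE, adjusted p = 0.000305 by edgeR). Ces1f fell from 504, 435 and 437 CPM to 198, 205 and 282 CPM, by 1.01 ± 0.15 on the log2 scale (SE, adjusted p = 0.00165 by edgeR).

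Ces2a was at 394, 333 and 322 CPM in sham livers and 209, 151 and 197 CPM after hepatectomy. All 3 treated libraries were lower, and Ces2a fell by 0.91 ± 0.14 on the log2 scale (SE, adjusted p = 0.00208 by edgeR). Ces3b went from 736, 742 and 768 CPM to 486, 385 and 456 CPM, a fall by 0.76 ± 0.10 on that scale (SE, adjusted p = 0.00121 by edgeR). Ces3a went from 2399, 2411 and 2454 CPM to 1661, 1820 and 1939 CPM, a smaller fall by 0.42 ± 0.09 (SE of log2, adjusted p = 0.00881 by edgeR). Neither Ces3 gene had overlapping groups. With library size alone Ces3a was at -0.24 and not called (adjusted p = 0.0567 by edgeR), and in 1 fit of all 26 libraries neither Ces3a (adjusted p = 0.253 by edgeR) nor Ces2a (adjusted p = 0.125 by edgeR) was called. Ces1c was at 2894, 2736 and 2622 CPM in sham livers and 1967, 1466 and 2113 CPM after hepatectomy, with no overlap. It fell by 0.57 ± 0.14 (SE of log2, adjusted p = 0.0166 by edgeR), but was not called without sham 1 or sham 2.

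The weakest calls were those of Ces1b and Ces2c. Ces1b was at 384, 354 and 363 CPM in sham livers and 239, 218 and 322 CPM after hepatectomy (-0.50 ± 0.14, SE of log2, adjusted p = 0.0313 by edgeR). Ces2c, the only member called higher, was at 22.2, 19.7 and 22.2 CPM against 31.6, 42.6 and 24.1 CPM (0.62 ± 0.19, SE of log2, adjusted p = 0.0393 by edgeR). Leaving out any 1 library other than hepatectomy 3 ended both calls, as did 1 fit of all 26 libraries (adjusted p = 0.0563 for Ces1b and 0.308 for Ces2c by edgeR). Library size alone ended that of Ces1b (-0.32, adjusted p = 0.0987 by edgeR), and the replicate block that of Ces2c (adjusted p = 0.0721 by edgeR). Hepatectomy 3 stood apart for Ces1d, at 769 CPM against 256 and 291 CPM in the other hepatectomised livers and 691 to 773 CPM in sham livers. Ces1d was not called (-0.75 ± 0.38, SE of log2, adjusted p = 0.170 by edgeR), and without hepatectomy 3 it was called lower at -1.43. Ces1g (-0.27 ± 0.21, SE, adjusted p = 0.379 by edgeR) was likewise called lower without hepatectomy 3, at -0.59.

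Beside the list and marker counts of this paragraph, 16.4% of all genes tested were called higher and 14.3% lower. Of 4 other family genes tested after hepatectomy, 3 fell, Ces2b (-1.65 ± 0.36), Ces4a (-0.60 ± 0.19) and Ces2g (-0.33 ± 0.08). Ces2b was rare, with at most 99 reads in any library of the series. Among 38 hydrolases 18 fell and 1 rose, the lipoprotein lipase gene Lpl (0.36 ± 0.08). Acot3 (-1.88 ± 0.36) and Lipc (-1.06 ± 0.12) fell most. Of 16 regulators Nr0b2 (1.99 ± 0.38) and Nfe2l2 (0.48 ± 0.16) rose and 6 fell, led by Klf15 (-0.88 ± 0.11) and Nr1i2 (-0.73 ± 0.12). Of the 12 targets Gsta1 (4.12 ± 0.63) and Gclc (0.64 ± 0.20) rose, and Por (-1.09 ± 0.25), Abcc3 (-0.89 ± 0.17) and Ugt1a1 (-0.71 ± 0.12) fell. Hepatocyte markers were lower in 3 of 7 cases (97280 to 107745 CPM summed against 129514 to 133599), and 2 of 5 stellate cell markers were higher (99.9 to 123 CPM against 80.6 to 98.5). Of 6 macrophage and 5 bile duct markers 1 each was higher, and 1 of 5 endothelial markers was lower. Their part in the result was not tested. All are edgeR calls with SE of log2 fold changes.

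TCPOBOP gave no call for any member. Over all 12785 genes tested, 0% were called higher and 0% lower by edgeR, 751 genes had an unadjusted p under 0.05, among them 3 members, and DESeq2's Wald test called 58 genes higher and 44 lower, with none of the members. The lowest adjusted p over all genes was 0.345 by edgeR. The library labelled corn oil 1 held 4872 CPM of Ces2a and corn oil 2 held 595 CPM, beside 4941 and 4034 CPM in the TCPOBOP libraries. For Ces2c the values were 274 CPM (corn oil 1) and 53.8 CPM (corn oil 2), beside 165 and 134 CPM with TCPOBOP. For both genes corn oil 1 was as high as the treated livers or higher, and corn oil 2 was the lowest of the 4 libraries.

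No direction is drawn from this comparison, because it turns on that library. With all libraries the log2 fold change of Ces2a was 0.70 ± 0.94 and that of Ces2c -0.15 ± 0.73 (SE). Without the library labelled corn oil 1 they were 2.91 and 1.47, and 2 members, Ces2a and Ces2c, were called higher and 2, Ces1b and Ces1e, lower, with 753 genes called higher and 480 lower. Without corn oil 2 they were -0.13 and -0.89, and 2 members, Ces1g and Ces2c, were called lower, with 198 genes called higher and 215 lower. Such fits keep 1 corn oil library, which is assumed to vary like the TCPOBOP pair. The other members had log2 fold changes from -0.93 (Ces1e, 138 and 218 CPM with corn oil, 106 and 81.9 CPM with TCPOBOP) to 0.27 (Ces1c, 3176 and 2834 CPM, then 3970 and 3318 CPM). All treated libraries lay above the corn oil libraries, with corn oil 1 among them, for 1 member and below for 4. How often other genes were separated like this was not computed, and no reading is drawn from these counts. The further lists gave 0 calls: 3 other family genes, 38 hydrolases, 16 regulators and 12 targets were tested, with medians of -0.90, -0.19, 0.14 and 0.17.

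Across the 5 comparisons, Ces3a and Ces3b were each called lower in 4 and higher in 0. The fifth, TCPOBOP, called no gene at all. In those 4, from 2.5% to 19.4% of all genes were called lower. In 1 fit of all 26 libraries Ces3a lost its hepatectomy and high fat calls, while Ces3b kept its calls. The coding sequences of this pair were 95.3% identical, so their counts may not be independent. Ces1g was called higher in 2 and lower in 0. Ces2a was called higher in 1 and lower in 2, and Ces2c higher in 2 and lower in 1, so neither gene kept 1 direction. Ces1c was called only after hepatectomy and Ces1d only in the knockout, although whether their effects differ between all these models was tested only for the pairs above. For Ces1d the uncalled log2 fold change with cholic acid (1.01) was larger than that in the knockout (0.76). The difference between these effects was not called (adjusted p = 0.713 by edgeR).

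Patterns over the 26 libraries were compared after the mean of each experiment's control group was taken from log2 CPM. These correlations describe libraries that share experiments and depth, and carry no test. Ces1e followed Ces1f most closely among the 45 member pairs (Pearson r = 0.90), and Ces3a followed Ces3b (r = 0.80). Ces1g and Ces3b ran in opposite directions (r = -0.82). Among 10438 genes, the closest outside the family were Cmah (r = 0.98) and Slc22a30 (r = 0.97) for Ces3b, and Hao1 and Ccdc162 (r = 0.95 each) for Ces3a. For Ces1g they were Nqo2 and Tcn2 (r = 0.94 each), for Ces1e Pdk1 and Me1 (r = 0.93 each), and for Ces1f Coasy and Pdk1 (r = 0.87 each). Ces1b had Rida (r = 0.92) and Tcea3 (r = 0.91), Ces1c had Glt1d1 (r = 0.90) and Nr1i2 (r = 0.88), and Ces1d had Inmt (r = 0.87) and Btg1 (r = 0.86). Ces2a had Cyp3a25 and Chpf2 (r = 0.88 each), and Ces2c had Dnajc1 (r = 0.88) and Afg3l1 (r = 0.86).

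Of the 10 family genes outside the group described here, only Ces2e, Ces2g and Ces4a passed the filter on low counts in all 5 comparisons. Ces2e ranged from 70.5 to 406 CPM, Ces2g from 18.6 to 98.9 CPM and Ces4a from 0.0953 to 7.90 CPM over the libraries. Ces2b reached at most 2.15 CPM and Ces2h at most 0.480 CPM. Ces2f and Ces5a had 0 reads in all 26 libraries, which allows up to 0.045 to 0.222 CPM per library (3 counts, counting error alone). Ces2d-ps, which shares most words with Ces2c, reached at most 13 reads in a library.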

How the data were processed

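Messenger RNA of mouse whole liver or hepatocytes was sequenced in 26 libraries of 10 groups, from a strand-specific TruSeq mRNA kit per the labels' protocols. The authors deposited raw read counts per gene in 1 table of 47643 genes and 5 summary lines (no feature, ambiguous, not unique and the like), which held 23.0% to 48.6% of a library and were left out. Assigned reads per library ran from 13949059 to 70367874. Per the submitters' processing notes, the tools were bcl2fastq 2.17.1.14, Trimmomatic, STAR 2.4.2a, Picard 1.119 and HTSeq, with builds GRCm38 and mm10. The annotation and the use of strand in counting are not given in the sources used here. Of the 10 members' identifiers, 5 carry the version of GENCODE M21 and 5 another, so exon lengths from M21 may differ from those counted. The number of per-sample columns not used is 0. A symbol was found for 47224 identifiers.

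Each comparison was fitted alone with edgeR 4.0.16 (limma 3.58.1, R 4.3.3): filterByExpr (count of at least 10, total of at least 15), TMM, quasi-likelihood F test and Benjamini-Hochberg adjustment over all genes, with calls at 0.05. A pair of further fits tested differences between effects. The SE of a log2 fold change is its size over the root of the F statistic. CPM shown in the text uses TMM over all 26 libraries. The calling step was tested on simulated counts. Replicate pairs were checked, and 0 of 22 were identical. The members and gene lists were chosen with earlier results of these data known. From each list, the text names up to 2 risen and 2 fallen genes of largest change with an average log2 CPM of at least 1; likenesses are the 2 genes of highest r for each member. In some lists with few calls, genes beyond this rule (Ces2b, Ces2h, Ces4a in the knockout and others) were added after their values were seen. No fixed limit on the number of calls was kept for these additions. DESeq2 1.42.0, other scalings, other filters, a replicate block, 1 fit of all libraries and leaving out each library were the alternatives. A regulator result in the high fat comparison is not reported here.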

Additional observations from a re-analysis of the deposited data

How the results depend on the processing

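No call of a member changed direction under any alternative: of 294 values from leaving out 1 library and 273 from the 7 other settings that started from a call, 0 were reversed. Of these, 62 and 17 lost the call. Among values that started uncalled and kept their sign, 17 and 18 gained one. Ces2c with TCPOBOP, which changed sign without corn oil 1 (1.47), is not among them. The cause of these changes was not tested. Members called higher in the knockout numbered 3 in 1 fit of all 26 libraries, where 2397 genes in all were called higher and 2406 lower. After hepatectomy the higher count was 0 with the replicate block and 0 with all 26 libraries, where the lower count was 4, beside 1955 genes higher and 1709 lower with the block and 1895 and 1496 with all libraries. The high fat lower count was 2 and the count higher in the knockout minus high fat difference was 2 with all 26 libraries, beside 1187 genes higher and 548 lower and 503 and 779. With cholic acid the higher count was 4 with library size alone, 3 with DESeq2's Wald test, 3 with no filter and 4 with all 26 libraries. Over the libraries left out, the higher and lower member counts ranged from 3 to 5 and 3 to 3 in the knockout. Beside them 2102 to 3153 genes in all were called higher and 1867 to 2871 lower. After hepatectomy the members ranged from 0 to 1 and 5 to 9, and all genes from 1443 to 2189 and 1111 to 2028. With cholic acid the members ranged from 1 to 3 and 2 to 3, and all genes from 63 to 719 and 109 to 626. For knockout minus cholic acid the members ranged from 2 to 5 and 1 to 3, and all genes from 681 to 1177 and 597 to 1269.

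Values that changed sign were all of uncalled members. Ces1b with cholic acid was 0.18 with library size alone and 0.016 with no filter, and Ces1e with high fat diet was -0.0019 with DESeq2. Over the libraries left out, log2 fold changes ranged from -0.19 to 0.15 for Ces1b and -0.28 to 0.38 for Ces2c with cholic acid, from -0.039 to 0.20 for Ces1c, -0.17 to 0.21 for Ces1e and -0.61 to 0.042 for Ces1f with high fat diet, and from -0.55 to 0.65 for Ces1d in the knockout minus high fat difference. With TCPOBOP the ranges were -0.063 to 0.39 for Ces1d, -0.55 to 0.033 for Ces1f, -0.13 to 2.91 for Ces2a and -0.89 to 1.47 for Ces2c.

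Replicate numbers paired no group's libraries firmly: same-numbered libraries correlated at 0.128, 0.148 and 0.099 in the cholic acid experiment, where each library was closest to its own number, and at -0.153 to -0.019 in the knockout. With the replicate block Ces2c changed sign under TCPOBOP (0.27). The block ended the calls of Ces2c after hepatectomy and of Ces1c and Ces1f in the knockout minus cholic acid difference, added Ces1d with high fat diet, and changed no other call. Genes called under cholic acid numbered 556 higher and 243 lower with library size alone, 645 and 734 with DESeq2's Wald test, 473 and 482 with no filter and 1397 and 1735 in 1 fit of all libraries. Groups of 2 or 3 libraries limit the precision of all values.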
